A study of Mus musculus with 6 samples.

Results

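Fibroblast growth factors (FGFs) and other ligands of receptor tyrosine kinases switch on the RAS-ERK kinase cascade, and the cascade in turn induces genes whose products damp it. The 10 genes described here are such feedback and target genes, chosen by symbol: the Sprouty genes Spry1, Spry2 and Spry4, the Spred genes Spred1, Spred2 and Spred3, the ERK phosphatase gene Dusp6, the FGF antagonist gene Il17rd (also known as Sef), and the ETS transcription factor genes Etv4 and Etv5. All 10 were found among the 49315 genes of the count table, and all 10 passed the filter on low counts. In the developing forebrain, FGF signalling acts on progenitors, and transcripts of the Sprouty genes, Dusp6 and the PEA3 factors Etv4 and Etv5 are widely used as readouts of it.

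RNA was taken from the medial ganglionic eminence (MGE), the ventral forebrain zone that gives rise to many cortical interneurons, of mouse embryos at embryonic day 14. The mutant group was Nkx2.1-Cre; Prdm16fl/fl; Ai14 (labelled KO) and the control group was Nkx2.1-Cre; Prdm16+/+; Ai14 (labelled WT). Both groups therefore carried the Cre, which is driven from Nkx2.1, a gene of MGE progenitors, and the Ai14 reporter. Each group held 3 libraries, each from a pool of 3 embryos (6 eminences), so a library is a mean over embryos and cells that the Cre did not reach are included.

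Total counts ran from 36517047 to 55552298 in the pools labelled KO and from 33188277 to 46301483 in the WT pools. Prdm16 itself had 53.6, 51.3 and 45.8 CPM (counts scaled by library size) in the pools labelled KO 1 to 3 and 55.8, 47.0 and 45.4 CPM in WT 1 to 3 (log2 fold change 0.0225, SE 0.090, edgeR adjusted p = 0.884). Which exons the floxed allele loses is unknown here, so whether a count per gene can check the KO label cannot be told, and every direction below rests on that label. The MGE gene Nkx2-1 averaged 769 ± 118 CPM in the pools labelled KO and 647 ± 29.4 CPM in WT (SD, n = 3 each), so the tissue label was matched in both groups. On the first principal component (55.9% of the variance) KO 1 was at -15.9, against -35.4 and -37.2 in KO 2 and KO 3. The WT pools lay at 28.3 to 31.0 there, so KO 1 was the nearest to WT of the pools labelled KO. KO 1 also stood apart from KO 2 and KO 3 on the second component (16.1% of the variance, 34.99 against -11.58 and -12.4). Xist, which is transcribed in female cells, had 1.92, 721 and 1424 CPM in KO 1 to 3, and 1020 to 1168 CPM in WT, so the pools differed in their sex make-up.

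The feedback genes showed no common direction. In the pools labelled KO, Etv5 was 1.45-fold lower and Spred2 was 1.17-fold lower, and these were the 2 of 10 members that passed the test (edgeR adjusted p = 0.00993 and 0.0377), while 0 members rose (1 at an unadjusted p under 0.05, 1 with DESeq2 and 0 with limma voom). Of the 18079 genes tested, 20.2% passed in either direction, 9.72% as higher and 10.5% as lower, so the share of members called in either direction was at the level of all genes. The median log2 fold change was -0.030 for the members and -0.0024 for all tested genes, and the median size of change without its sign was 0.19 for both. At an unadjusted edgeR p under 0.05 there were 5 members, Spry1 among them with a higher mean and Spry4, Spred2, Etv4 and Etv5 with a lower one, where 36.7% of all tested genes met that limit.

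The upstream sequences of Etv5 and Spred2, the members that passed, and of Spry1 and Dusp6, whose means lay on the other side, are shown because the members differed in direction. They were taken from RefSeq (GRCm38.p6), 5′ to 3′ on the gene's own strand, as the stretch of up to 250 bases before an annotated start that no GENCODE exon of the gene covers. Capitals mark TGAATG, or CATTCA where it lies on the other strand, the core of the element bound by Capicua, a repressor that ERK signalling relieves and that is known to act on PEA3 genes. The Etv5 stretch precedes the more downstream of its 2 RefSeq starts, and the stretch before the other start held no match.
Etv5 (chr16:22438369-22438618, minus strand): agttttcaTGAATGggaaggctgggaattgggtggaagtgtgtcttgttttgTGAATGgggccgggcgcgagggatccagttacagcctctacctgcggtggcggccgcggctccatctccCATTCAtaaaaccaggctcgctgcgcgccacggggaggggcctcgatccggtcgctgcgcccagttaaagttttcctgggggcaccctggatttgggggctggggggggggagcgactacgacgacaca
Dusp6 (chr10:99262981-99263230, plus strand): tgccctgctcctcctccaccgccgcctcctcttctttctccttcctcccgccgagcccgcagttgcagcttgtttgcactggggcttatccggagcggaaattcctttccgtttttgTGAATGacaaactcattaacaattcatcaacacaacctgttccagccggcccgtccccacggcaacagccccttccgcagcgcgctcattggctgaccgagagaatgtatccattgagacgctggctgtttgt
Spry1 (chr3:37639697-37639946, plus strand): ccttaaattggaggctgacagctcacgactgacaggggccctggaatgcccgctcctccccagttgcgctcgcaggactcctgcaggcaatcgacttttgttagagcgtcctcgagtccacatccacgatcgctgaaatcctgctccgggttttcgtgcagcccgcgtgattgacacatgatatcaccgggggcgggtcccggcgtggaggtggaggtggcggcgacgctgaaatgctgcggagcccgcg
Spred2 (chr11:19924192-19924374, plus strand): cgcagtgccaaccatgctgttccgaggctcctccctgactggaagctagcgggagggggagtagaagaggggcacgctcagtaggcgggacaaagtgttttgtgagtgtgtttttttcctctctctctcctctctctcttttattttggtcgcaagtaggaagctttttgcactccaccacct

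Searched on both strands, the core TGAATG was found 3 times in this Etv5 stretch, at 242, 198 and 129 bases before the start, and once in that of Dusp6, 133 bases before the start. Spred3 held it 2 times. It was present in 10.9% of all 32851 RefSeq windows of 250 bases. The ETS core CCGGAA (12% of all windows) and the AP-1 element TGANTCA (6.75% of all windows) had no match in the windows of the 8 members that the RefSeq table holds. The TGAATG search was chosen after these windows had been read, and a match of letters is a description only. Spry4 and Etv4 are named without sequence.

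Levels differed widely among the members. Per length, in TPM (transcripts scaled by length and library) over the exons of GENCODE M21, Spred2 and Spred1 were the highest, at 38.1 ± 4.01 and 36.8 ± 2.59 TPM in the pools labelled KO and 47.4 ± 1.69 and 40.1 ± 1.25 TPM in WT (SD, n = 3 each), and their ranges overlapped in the pools labelled KO only. Spry2, at 25.8 TPM in the pools labelled KO and 26.9 TPM in WT, and Spred3, at 24.8 and 24.1 TPM, came next, and their ranges over libraries overlapped each other in both groups. Dusp6 followed at 14.9 TPM in the pools labelled KO and 14.4 TPM in WT, and its range overlapped that of Spry1 in the pools labelled KO. Spry1 lay above Etv5 in the pools labelled KO (13.2 against 7.72 TPM), whereas in WT Etv5 had 11.9 TPM and Spry1 had 10.4 TPM with overlapping ranges. Il17rd had 5.86 TPM in the pools labelled KO, where its range overlapped that of Etv5, and 6.39 TPM in WT. Spry4 and Etv4 were the least abundant, at 1.83 and 1.59 TPM in the pools labelled KO and 2.73 and 2.59 TPM in WT, and these neighbours overlapped in both groups. With the longest transcript as the length, Spred3 moved above Spry2 and Etv4 above Spry4, while the other ranks by the mean of all libraries were kept.

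**Figure D1:**
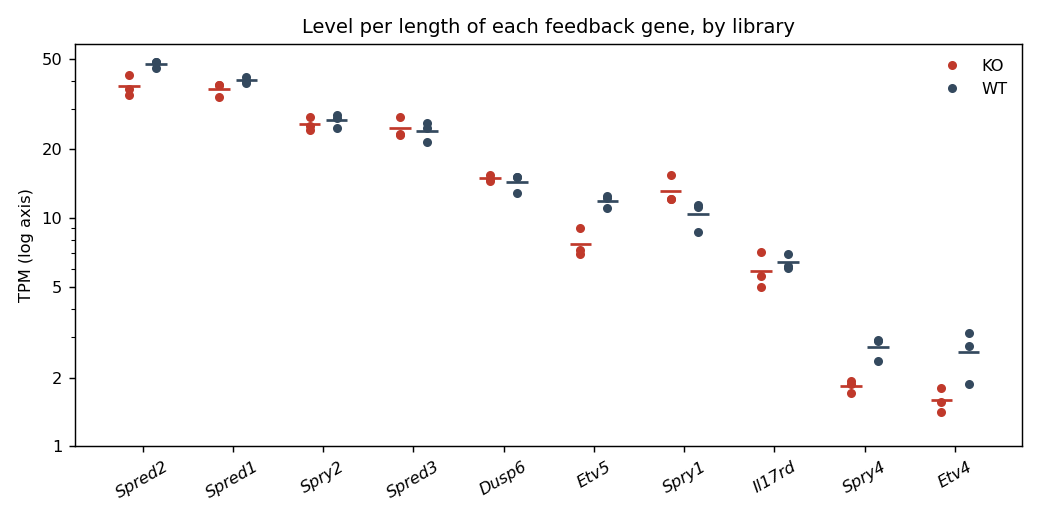
Level per length (TPM, log axis) of each of the 10 genes, ordered by the WT mean; points are single libraries (red, pools labelled KO; dark blue, WT) and bars are group means. Spred2 and Spred1 lie highest, Spry4 and Etv4 lowest, and Etv5 and Spry1 exchange places between the groups.

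PEA3 factors of the ETS family carry FGF and ERK signals into transcription, and both members were at a lower mean. Etv5 (ENSMUSG00000013089, GRCm38 chromosome 16, 22381309 to 22439719) had 9.66, 8.15 and 7.97 CPM in the pools labelled KO 1 to 3 and 11.6, 12.6 and 13.2 CPM in WT 1 to 3. Every pool labelled KO was below every WT pool, and KO 1 was the nearest to WT. Etv5 fell by 0.53 on the log2 scale (SE 0.11, edgeR adjusted p = 0.00993), and the 95% interval of the fold ran from 0.587 to 0.812. Etv5 had a lower mean in all 16 alternative settings and passed in 15 of them. It missed the threshold without WT 3 (log2 fold change -0.49, edgeR adjusted p = 0.0526).

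Etv4 (ENSMUSG00000017724, chromosome 11, 101769742 to 101785371), its close relative, had only 56, 56 and 68 reads in the pools labelled KO and 69, 82 and 84 reads in WT. That is 1.26, 1.54 and 1.23 CPM in the pools labelled KO, against 1.5, 2.45 and 2.19 CPM in WT. The groups overlapped, since WT 1 lay below KO 2. The log2 fold change of -0.60 (SE 0.21) did not pass (edgeR adjusted p = 0.0715), and it passed without WT 1 (-0.79, edgeR adjusted p = 0.0356) and with no filter on low counts (-0.58, edgeR adjusted p = 0.04225). Etv5 held 82.8 ± 2.61% of the TPM of this pair in the pools labelled KO and 82.3 ± 2.95% in WT, so the balance within the pair differed by less than the spread between libraries.

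Sprouty proteins are inhibitors of RAS-ERK signalling that are themselves induced by it, and the means of the 3 genes differed in direction. Spry1 (ENSMUSG00000037211, chromosome 3, 37639947 to 37644598) had 9.19, 9.66 and 12.6 CPM in the pools labelled KO 1 to 3 and 6.48, 8.36 and 8.34 CPM in WT 1 to 3. The groups did not overlap, and KO 3 was highest. The log2 fold change was 0.45 (SE 0.15), which missed the threshold (edgeR adjusted p = 0.06). Spry1 passed without KO 1 (0.54, edgeR adjusted p = 0.0113), with DESeq2 (adjusted p = 0.0256) and with no filter on low counts (edgeR adjusted p = 0.00548). An annotated gene on the opposite strand, Gm42922, overlaps an exon of Spry1 by 577 bases, and without a stated strand setting their reads cannot be told apart.

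Spry4 (ENSMUSG00000024427, chromosome 18) had a lower mean, with 2.12, 2.44 and 2.57 CPM in the pools labelled KO and 2.88, 3.47 and 3.57 CPM in WT. All pools labelled KO were below all WT pools. The change, -0.47 on the log2 scale (SE 0.15), lay at the edge of the threshold (edgeR adjusted p = 0.0502). It passed with a filter of 1 CPM in 3 libraries (edgeR adjusted p = 0.0464), with library totals in place of TMM factors (edgeR adjusted p = 0.0484) and with RLE size factors (edgeR adjusted p = 0.04998). Spry2 (ENSMUSG00000022114, chromosome 14, 105891947 to 105896819), the most abundant Sprouty gene, ran from 14 to 15.1 CPM in the pools labelled KO and from 13.2 to 15.1 CPM in WT. Its 95% interval of the fold was 0.903 to 1.17 (edgeR adjusted p = 0.769), and its small log2 fold change of 0.039 became -0.0556 once each library's trend on exonic length was removed. Within the Sprouty TPM, Spry4 made up 4.50 ± 0.378% in the pools labelled KO and 6.81 ± 0.180% in WT, and Spry1 made up 32.3 ± 3.59% in the pools labelled KO and 26 ± 1.56% in WT (SD, n = 3 each).

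**Figure D2:**
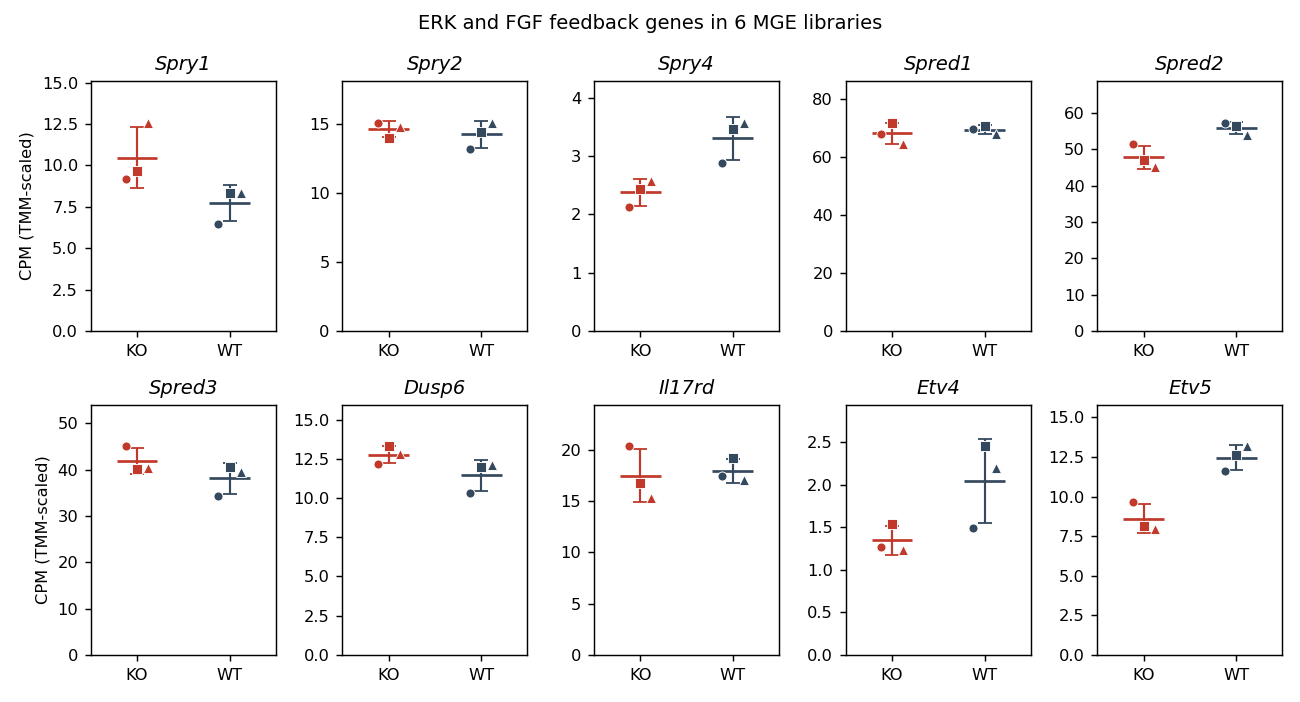
CPM of each gene in each library, each panel with its own axis from 0; circles, squares and triangles are pools 1, 2 and 3, the long bar is the group mean and whiskers are 1 SD (n = 3). For Etv5, Spred2 and Spry4 the pools labelled KO all lie below WT, for Spry1 and Dusp6 all above, and the other 5 overlap.

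Spred proteins bind neurofibromin, a RAS inactivator, and bring it to the membrane. Spred2 (ENSMUSG00000045671, chromosome 11, 19924375 to 20024026) had 51.3, 47.0 and 45.1 CPM in the pools labelled KO 1 to 3 and 57.3, 56.4 and 53.8 CPM in WT 1 to 3. The groups did not overlap. Spred2 fell by 0.22 on the log2 scale (SE 0.065, edgeR adjusted p = 0.0377), with a 95% interval of the fold from 0.774 to 0.946. This call depended on which libraries were used. It was lost without KO 2, KO 3, WT 1, WT 2 or WT 3 (edgeR adjusted p from 0.0872 to 0.141), at log2 fold changes of -0.25 to -0.18. Those fits called only 6.4% to 10.8% of all genes tested in them. The Spred2 call was also lost with the replicate number as a block (edgeR adjusted p = 0.0566), and it was kept without KO 1 (edgeR adjusted p = 0.00094).

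Spred1 (ENSMUSG00000027351, chromosome 2, 117121374 to 117182279), the gene of the same family that is mutated in human Legius syndrome, ran from 64.4 to 71.7 CPM in the pools labelled KO and from 67.7 to 70.7 CPM in WT, the WT range lying inside the other. The 95% interval of its fold was 0.898 to 1.07 (edgeR adjusted p = 0.769). Spred3 (ENSMUSG00000037239, chromosome 7, 29158829 to 29170411) ran from 40.1 to 45.0 CPM in the pools labelled KO and from 34.3 to 40.6 CPM in WT (log2 fold change 0.13, SE 0.080, edgeR adjusted p = 0.251). An exon of Spred3 overlaps one of Ggn on the opposite strand by 202 bases, so its count is uncertain to that extent. Summed over the family, Spred TPM was 108.6, 98.7 and 91.8 in the pools labelled KO 1 to 3 and 109.7, 116 and 109.2 in WT 1 to 3. TPM and CPM scale each library differently, and these sums depend on that choice. Spred1 ran from 33.9 to 38.4 TPM in the pools labelled KO and from 38.9 to 41.4 TPM in WT, although its CPM overlapped. The lower TPM sums are therefore not read as a fall of the whole family.

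Dusp6 and Il17rd act at other points of the pathway, Dusp6 by removing phosphate from ERK and Il17rd as a membrane protein that antagonises FGF signalling. Dusp6 (ENSMUSG00000019960, chromosome 10, 99263231 to 99267489) had 12.2, 13.3 and 12.8 CPM in the pools labelled KO and 10.3, 11.9 and 12.1 CPM in WT. The groups were next to each other without overlap, with 12.2 CPM in KO 1 against 12.1 CPM in WT 3. In TPM, which scales each library differently from CPM, the groups overlapped, at 14.5 to 15.4 TPM in the pools labelled KO and 12.8 to 15.2 TPM in WT. Dusp6 did not pass (log2 fold change 0.16, SE 0.093, edgeR adjusted p = 0.254), and the 95% interval of its fold was 0.964 to 1.29. Il17rd (ENSMUSG00000040717, chromosome 14, 27038941 to 27107286) ran from 15.3 to 20.3 CPM in the pools labelled KO, with KO 1 highest, and from 17.1 to 19.2 CPM in WT. It did not pass (log2 fold change -0.034, SE 0.11, edgeR adjusted p = 0.852), and its log2 fold change ran from -0.15 to 0.10 over the 16 alternative settings. In all, the CPM of 5 of the 10 members did not overlap between the groups, beside 39.9% of all tested genes.

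**Figure D3:**
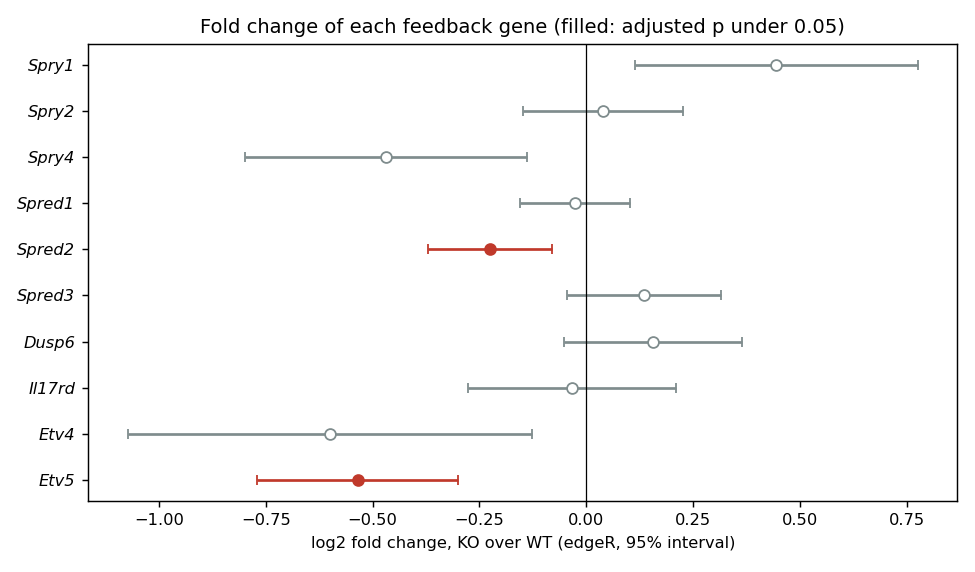
Log2 fold change, pools labelled KO over WT, of each feedback gene with its 95% interval (edgeR); filled points passed an adjusted p under 0.05. Etv5 (-0.53) and Spred2 (-0.22) are filled, and Spry1 (0.45) and Spry4 (-0.47) lie on opposite sides of 0.

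The genes above the feedback step were examined next. Of the 22 FGF genes listed, not all of which encode receptor ligands, 12 were tested, of which 1 rose and 2 fell. Fgf15, a secreted FGF of the embryonic forebrain, had 22.2, 27.0 and 28.2 CPM in the pools labelled KO 1 to 3 and 4.57, 5.62 and 5.68 CPM in WT 1 to 3, a 4.89-fold rise (edgeR adjusted p = 1e-05). The 2 that fell, Fgf12 (log2 fold change -0.80, edgeR adjusted p = 0.00324) and Fgf13 (-0.52, edgeR adjusted p = 0.00209), belong to the intracellular FGF homologous factors, which bind sodium channels and are not ligands of the FGF receptors. Fgf2, Fgf3, Fgf7, Fgf9, Fgf11 and Fgf14, the others with a mean of at least 1 CPM, did not pass (log2 fold changes 0.29, 0.53, -0.34, 0.15, -0.10 and 0.12). Of these, Fgf11 and Fgf14 are FGF homologous factors too. Fgf8 averaged 0.0588 CPM in the pools labelled KO and 0.0520 CPM in WT and was not tested.

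Among the 5 FGF receptor genes, 2 rose. Fgfr3, a receptor gene of forebrain progenitors, had 120, 131 and 137 CPM in the pools labelled KO 1 to 3 and 86.6, 80.0 and 83.3 CPM in WT 1 to 3 (log2 fold change 0.64, edgeR adjusted p = 0.000347). Fgfr1 averaged 124 ± 2.26 CPM in the pools labelled KO and 109 ± 6.23 CPM in WT (log2 fold change 0.18, edgeR adjusted p = 0.0474), and this call was lost with library totals in place of TMM factors, with limma voom, with the replicate block and without KO 2, KO 3, WT 2 or WT 3 (adjusted p from 0.0515 to 0.181). Fgfr2, Fgfr4 and the decoy receptor gene Fgfrl1 did not pass (log2 fold changes -0.0772, 0.42 and 0.0249). Fgf15, Fgfr3 and Fgfr1 were thus higher in the pools in which Etv5 and Spred2 were lower.

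Other receptor tyrosine kinases also feed the ERK cascade, and 10 of the 16 tested fell while 1 rose, with a median log2 fold change of -0.48. The 4 with the smallest p were Erbb4 (-1.001), Egfr (-3.27), Kit (-0.61) and Alk (-1.65), with edgeR adjusted p-values from 7.74e-05 to 0.000462. The cascade itself was more even, as 20 of its 23 listed genes did not pass. The adaptor genes Gab1 (-0.37, edgeR adjusted p = 0.0153) and Frs2 (-0.24, edgeR adjusted p = 0.0417) fell and the kinase gene Map2k2 rose (0.20, edgeR adjusted p = 0.0359). Each of these 3 calls was lost in at least 4 of the fits that left out 1 library.

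The lists of other MAP kinase phosphatases, other ERK-induced genes and ETS relatives were split in direction. Not every gene of the first and last of these lists is an ERK-induced transcript. Of 9 other MAP kinase phosphatase genes 2 rose, Dusp9 (1.49 CPM in the pools labelled KO against 0.685 CPM in WT, log2 fold change 1.11, edgeR adjusted p = 0.0057) and Dusp10 (0.43, edgeR adjusted p = 0.0251), whose product acts mainly on the stress kinases. Of 15 other ERK-induced genes 4 rose and 6 fell. The cyclin gene Ccnd1 rose (1.04, edgeR adjusted p = 6.5e-05), while Etv1, the remaining PEA3 factor (-0.60, edgeR adjusted p = 0.000459), Phlda1 (-0.62, edgeR adjusted p = 0.00135) and the ephrin receptor gene Epha4 (-0.72, edgeR adjusted p = 0.00165) fell. Etv1 thus lay on the same side as Etv4 and Etv5. In the list of ETS relatives and repressors, which holds Etv1 too, Ets1 (-0.41, edgeR adjusted p = 0.00464) and Ets2 (-0.31, edgeR adjusted p = 0.0353) fell and 7 of 10 did not pass. Over all these pathway lists, 11 of 89 distinct tested genes rose and 22 fell (37.1%, beside 20.2% of all tested genes). The lists were chosen with earlier results of these data known, so this share is a description and not a measure of enrichment.

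**Figure D4:**
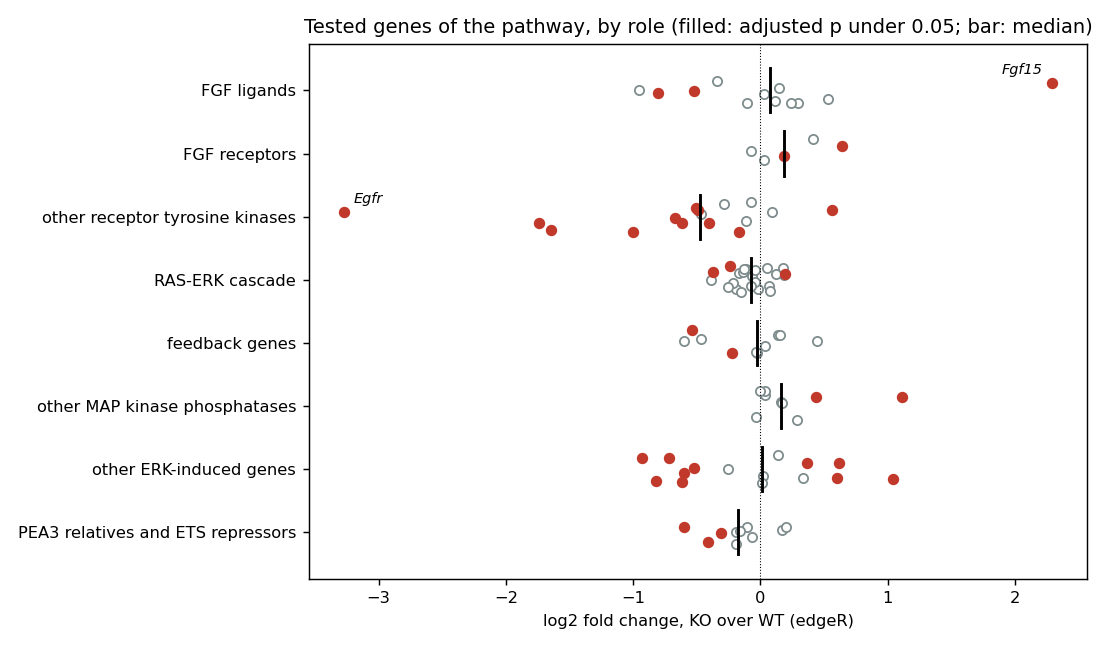
Log2 fold change, pools labelled KO over WT, of each tested gene of the pathway by role, from ligands at the top to targets and ETS relatives at the bottom. Filled points passed an edgeR adjusted p under 0.05 and bars are list medians. The feedback genes all lie between -0.60 and 0.45, while Fgf15 (2.29) and Egfr (-3.27) lie far out.

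Cell type markers moved in the same libraries, with 24 of 91 distinct tested markers higher and 27 lower (56%, beside 37.1% of the pathway genes and 20.2% of all tested genes). The marker lists too were chosen with earlier results known, so their share is likewise a description. In bulk RNA fewer cells of a type and less RNA per cell cannot be told apart. Of 10 radial glia markers 9 rose and 1 fell, with Sox9 (log2 fold change 0.63), Nes (0.67) and Id4 (0.55) the 3 with the smallest p (edgeR adjusted p from 0.00021 to 0.000549). The 1 that fell was Slc1a3 (-0.65, edgeR adjusted p = 0.00201), at means of 40.7 CPM in the pools labelled KO and 63.9 CPM in WT. The summed level of the 10 markers was 2786 to 3303 CPM in the pools labelled KO and 1922 to 2033 CPM in WT. Of 10 postmitotic neuron markers 4 fell, among them Syt4 (log2 fold change -0.79), Nrxn3 (-0.44) and Snap25 (-0.32), and 0 passed as higher, with a sum of 5429 to 5780 CPM in the pools labelled KO and 6061 to 6342 CPM in WT. The summed CPM of the 10 feedback genes was 217 to 234 in the pools labelled KO and 224 to 240 in WT, and these ranges overlapped.

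Markers of neighbouring tissue and of vessels moved as well, and the values after gene names are log2 fold changes of genes that passed (edgeR). The lateral and caudal eminence list did not move as 1 set. Of its 10 genes 6 fell, Ikzf1 (-2.01), Penk (-1.39) and Foxp1 (-1.03) among them. Nr2f2 alone rose (0.97, with means of 231 CPM in the pools labelled KO and 118 CPM in WT). The summed level, 782 to 884 CPM in the pools labelled KO and 836 to 961 CPM in WT, therefore joins both directions. Among cortical excitatory markers 5 of 8 rose, Emx1 (1.61), Emx2 (0.32) and Neurog1 among them (summed 70.3 to 109.8 CPM in the pools labelled KO and 35.3 to 60.1 CPM in WT). Neurog1 averaged 1.71 ± 1.41 CPM in the pools labelled KO and 0.0259 ± 0.0041 CPM in WT (SD, n = 3 each), so the pools labelled KO varied widely. Emx1 was low too, at 1.49 ± 0.0986 CPM in the pools labelled KO and 0.504 ± 0.340 CPM in WT. Of 7 tested markers of the septum and rostral midline 3 rose, Zic1 (0.455) and Zic4 (0.59) among them (summed 949 to 1030.5 CPM in the pools labelled KO and 777 to 811 CPM in WT). Of 8 endothelial markers Cldn5 (-0.69), Slco1c1 (-1.04) and Tie1 (-0.32) fell (summed 157 to 191 CPM in the pools labelled KO and 212 to 214 CPM in WT). Of 6 pericyte markers 5 fell, Cspg4 (-0.74), Pdgfrb (-0.40) and Rgs5 (-0.52) among them (summed 183 to 248 CPM in the pools labelled KO and 219 to 233 CPM in WT). Of 6 microglia markers Csf1r (-0.43) and Cx3cr1 (-0.40) fell (summed 26.8 to 32.4 CPM in the pools labelled KO and 34.8 to 36.4 CPM in WT). In the MGE list of 10 Lhx8 rose (0.49) and 3 fell, Gad1 (-0.36) and Lhx6 (-0.38) among them (summed 4162 to 4648 CPM in the pools labelled KO and 4706 to 5023 CPM in WT). Among 5 oligodendrocyte precursor markers Olig2 rose (0.47) and Olig1 (-0.39) and Cspg4, which is in both lists, fell (summed 191 to 230.4 CPM in the pools labelled KO and 179 to 185 CPM in WT). The oligodendrocyte precursor sum thus joins both directions and is mostly Olig2, at a mean of 160 CPM in the pools labelled KO and 116 CPM in WT. It is not read as a rise of the whole list. Of 9 red cell markers 3 rose, the globin genes Hba-x (2.96), Hbb-y (2.61) and Hbb-bh1 (4.67), while the globin genes Hbb-bs (-1.54) and Hbb-bt (-0.87) fell. The 9 markers summed to 996 to 1596 CPM in the pools labelled KO and 659 to 721 CPM in WT. This sum joins genes of both directions, with Hbb-y at a mean of 812 CPM in the pools labelled KO and 133 CPM in WT. What lies behind this change among globin genes was not tested. Of 3 tested choroid plexus markers Otx2 alone rose (1.39; summed 28.2 to 34.9 CPM in the pools labelled KO and 12 to 14 CPM in WT), while Ttr, the defining one, was at 0.0604 CPM in the pools labelled KO and 0.117 CPM in WT. The part of these cell types in the values of the feedback genes was not tested.

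Which libraries were used changed the calls. Without KO 1, 1 member (Spry1) rose and 2 (Spred2 and Etv5) fell, where 41.5% of all genes tested in that fit were called. Without WT 3, Spred2 and Etv5 kept their direction and missed the threshold (edgeR adjusted p = 0.0872 and 0.0526), where 6.4% of all genes were called.

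**Figure D5:**
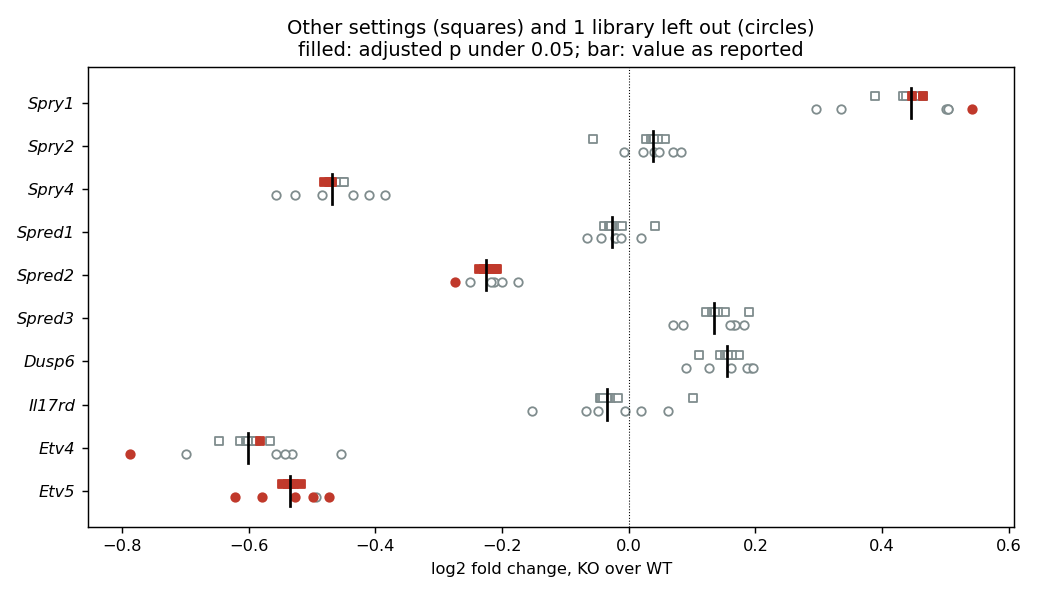
Log2 fold change, pools labelled KO over WT, of each feedback gene under the other settings (squares) and with 1 library left out (circles); filled symbols passed an adjusted p under 0.05 and bars are the values as reported. Spry2, Spred1 and Il17rd cross 0, and Etv5 is filled in 15 of 16.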

How the data were processed

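Total RNA of dissected E14 MGE pools was sequenced in 6 libraries. The submitters' processing notes name Trimmomatic 0.36, STAR 2.5.2b, featureCounts, Subread 1.5.2, DESeq2 and the build GRCm38, while neither the annotation release nor the strand mode is given in the sources used here. Every value here comes from raw counts that the authors deposited, with 1 column per pool and 1 row per Ensembl gene. Their normalized table was not used, since 2 of its columns share a name. Gene symbols, positions and exonic lengths came from GENCODE M21 (48970 of 49315 gene IDs found).

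R 4.3.3 with edgeR 4.0.16 was used for the main test, a robust quasi-likelihood fit with TMM factors. It took the 18079 genes that filterByExpr kept (at a minimum count of 10 and a minimum total of 15), and p-values were adjusted over all of them by Benjamini-Hochberg, with calls at 0.05. CPM values use the TMM-scaled library sizes, and TPM values use exonic lengths without TMM factors. The procedure was tested on simulated data. SEs were obtained from each log2 fold change and its F statistic. The labels describe each library as a pool of 3 embryos, and p-values measure the spread between these pools.

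Members and lists were chosen with earlier results of these data known. Named were all members, Prdm16, FGF receptors, FGF ligands with a mean of at least 1 CPM, up to 4 called genes of each pathway list and up to 3 of each marker list, those with the smallest p. One gene that this rule picks is not reported here. Nkx2-1, Fgf8, Ttr, Xist, Slc1a3, Nr2f2, Hbb-y, Hbb-bh1 and the overlapping genes Gm42922 and Ggn were named outside this rule. Alternatives were other scalings and filters, DESeq2 1.42.0, limma 3.58.1 voom, no robust spread, a replicate block, removal of each library's length trend, other thresholds and each library left out. Spry3 was the 1 listed symbol without a match.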

Additional observations from a re-analysis of the deposited data

How the results depend on the processing

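Of 160 values (10 members, 16 alternatives), 138 had the same direction and call, 7 lost a call, 8 gained one and 7 changed sign; for the 63 other genes that the naming rule picks, with Nkx2-1, 901 of 1007 values did so, 94 lost a call, 3 gained one and 9 changed sign. Causes were not tested unless given.

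The replicate block gave 862 higher and 1219 lower genes and 1 lower member, with Spred2 at -0.23 (edgeR adjusted p = 0.0566); deviations of same-numbered pools correlated at -0.0756, -0.12 and 0.0264, so the numbers give no sign of pairing. With each library left out in turn there were 464 to 3752 higher genes and 727 to 3804 lower ones, 0 to 1 higher and 0 to 2 lower members, 7 to 17 higher and 14 to 33 lower pathway genes, and 15 to 25 higher and 13 to 34 lower markers. It gave log2 fold changes of 0.30 to 0.54 for Spry1, -0.0074 to 0.0824 for Spry2, -0.0652 to 0.0188 for Spred1, -0.27 to -0.18 for Spred2, -0.79 to -0.45 for Etv4, -0.62 to -0.47 for Etv5, -0.15 to 0.0627 for Il17rd, -0.0342 to 0.13 for Prdm16, -0.013 to 0.0755 for Fgfrl1 and -0.0591 to 0.27 for Fgf9. By construction, a threshold of 0.01 gave 360 higher and 583 lower genes and 1 lower member, and one of 0.1 gave 2732 higher genes with 1 higher and 4 lower members. The count of higher members was 1 with no filter and 1 with DESeq2, Spry1 in both (0.46 and 0.45). Spry4 passed with RLE factors (-0.47), library totals (-0.48) and the stricter filter (-0.47), and Etv4 with no filter (-0.58). Removing the length trend changed the sign of Spry2 (-0.0556), Spred1 (0.0423), Il17rd (0.10), Fgfr2 (0.0535) and Fgfrl1 (-0.0371), none of which passed. Etv4 (56 to 84 reads) and Spry4 (89 to 142 reads) had the fewest reads of the members and the least precision from counting.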

Other observations

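Because ratios of counts within a library do not depend on its scaling, 2 pairs of members were set side by side after their values had been seen, as a description. Spry1 had 4.33, 3.96 and 4.89 reads per Spry4 read in the pools labelled KO 1 to 3 and 2.25, 2.41 and 2.34 in WT 1 to 3. Dusp6 had 1.26, 1.63 and 1.6 reads per Etv5 read in the pools labelled KO 1 to 3 and 0.890, 0.948 and 0.919 in WT 1 to 3. Each pair joins a gene that was higher in every pool labelled KO with one that was lower in every such pool, so the choice of pairs alone keeps the 2 groups from overlapping, and the ratios add no evidence beyond the values of each gene.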
